A study of Homo sapiens with 4 samples.

Results

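The serine/threonine kinase receptors for activins, bone morphogenetic proteins (BMPs) and transforming growth factor beta (TGF-beta) were described in WM35, an established human melanoma line of the radial growth phase. A list of 9 genes was drawn up: the type I receptors ACVR1, ACVR1B, BMPR1A and TGFBR1, the type II receptors ACVR2A, ACVR2B, BMPR2 and TGFBR2, and the co-receptor TGFBR3. Every probe set annotated with a single one of these symbols was taken, which gave 17 of 27631 probe sets and 8 of the 9 genes. ACVR2B had 8 probe sets, ACVR1B and ACVR2A had 2 each, and the other 5 genes had 1 each. BMPR1A, a type I receptor for BMPs, matched no annotated probe set and was not analysed here. The genes were selected on their C646 minus DMSO differences at both times and their levels on all 4 arrays, so every value of theirs below is a description and none is tested.

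The cultures compared were WM35 exposed to 20 µM C646 for 6 h, to 0.2% DMSO for 6 h, to 20 µM C646 for 24 h and to 0.2% DMSO for 24 h. C646 inhibits the acetyltransferases p300 and CBP, and DMSO was the vehicle. All were grown in DMEM with serum and collected with trypsin, and each condition was measured on 1 Affymetrix Human Exon 1.0 ST array from 100 ng of total RNA. With 1 array and no replicate culture per condition there is no spread between replicates, so whether neighbouring levels differ beyond it could not be judged, and the number of arrays limits the precision.

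These receptors work as complexes. A ligand dimer brings together type II receptors, whose kinases are always active, and type I receptors, which the type II kinases phosphorylate. The activated type I receptor phosphorylates SMAD proteins: SMAD2 and SMAD3 for TGF-beta and activins, SMAD1, SMAD5 and SMAD9 for BMPs. These join SMAD4 and enter the nucleus, where p300 and CBP are among the coactivators they recruit. In melanocytes and melanoma, TGF-beta is known to restrain proliferation and pigmentation and to promote an invasive state.

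The starts of ACVR2A, ACVR2B and BMPR2 are shown first. They are the type II receptor genes with the widest 6 h difference in any of their probe sets, which for ACVR2B means 2 of 8, and the base composition of ACVR2A differs from that of the other two. Each window runs from 250 bases before to 50 bases after the RefSeq gene start in GRCh38.p14 and is written 5′ to 3′ on the gene's strand. Capitals mark GC boxes, the Sp1-type motif GGGCGG or its reverse complement CCGCCC, and the core of the cyclic AMP response element, TGACG or CGTCA, which CREB proteins bind and through which they recruit CBP. The windows are ACVR2A at chr2:147844779-147845078 on the plus strand, ACVR2B at chr3:38453640-38453939 on the plus strand and BMPR2 at chr2:202376077-202376376 on the plus strand.
ACVR2A: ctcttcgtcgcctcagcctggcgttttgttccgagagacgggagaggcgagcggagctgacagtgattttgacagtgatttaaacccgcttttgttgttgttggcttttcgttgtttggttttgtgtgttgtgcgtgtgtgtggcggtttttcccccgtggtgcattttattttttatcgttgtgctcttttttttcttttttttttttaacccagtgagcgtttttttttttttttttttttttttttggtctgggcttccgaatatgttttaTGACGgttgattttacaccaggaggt
ACVR2B: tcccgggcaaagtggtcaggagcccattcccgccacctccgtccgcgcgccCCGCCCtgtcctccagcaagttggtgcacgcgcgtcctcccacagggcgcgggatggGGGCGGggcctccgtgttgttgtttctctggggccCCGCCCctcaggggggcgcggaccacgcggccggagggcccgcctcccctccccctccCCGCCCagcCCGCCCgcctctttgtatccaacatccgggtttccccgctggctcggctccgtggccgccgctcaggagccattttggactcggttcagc
BMPR2: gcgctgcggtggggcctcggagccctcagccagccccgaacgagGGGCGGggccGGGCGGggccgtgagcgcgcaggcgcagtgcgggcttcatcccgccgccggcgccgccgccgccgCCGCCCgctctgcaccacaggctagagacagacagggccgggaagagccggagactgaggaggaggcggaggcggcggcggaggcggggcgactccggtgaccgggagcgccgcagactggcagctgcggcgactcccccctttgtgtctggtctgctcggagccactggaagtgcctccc

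The ACVR2A window had a GC content of 41.3%, lower than most of the 35116 RefSeq windows of this length, of which 13.6% had a still lower one. It held no GC box, 16 CpG dinucleotides and a run of 27 T bases. The ACVR2B window had a GC content of 73.0%, with 31 CpG dinucleotides and 5 GC boxes. The BMPR2 window had a GC content of 76.7%, with 38 CpG dinucleotides and 3 GC boxes. Over all windows the median GC content was 58.7%, and 45.0% held at least 1 GC box on either strand.

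Of the other receptors with 1 listed start, TGFBR3 had a GC content of 71.7% with 2 GC boxes, whereas BMPR1A had 50.3% and no GC box. TGFBR1 had 8 listed windows, ACVR1 had 3, and TGFBR2 and ACVR1B had 2 each, which ranged widely: the ACVR1B windows had GC contents of 82.3% and 46.7%. The TGACG core occurred in the ACVR2A window and in 1 TGFBR1 window among all 20 receptor windows, against 24.6% of all RefSeq windows. The short SMAD-binding motif GTCTG or CAGAC occurred 4 times in the BMPR2 window and 1 time in that of ACVR2A, was not in that of ACVR2B, and occurred in 45.3% of all windows. A SMAD motif can share bases with a TGACG core on either strand, and a match describes letters only.

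Values are log2 expression values as deposited, and a level is read only within a probe set, since probes differ in brightness. A difference of 1 on this scale is 2-fold and one of 0.58 is 1.5-fold. Probe sets whose mean over the 4 arrays was at or above the 40th percentile, 3.96, were kept for counts over all features, which left 16579. Of the 17 receptor probe sets, 16 were above it, and the one below was ACVR2B probe set 2617752 with a mean of 3.77. Pearson's r over all probe sets was 0.975 to 0.979 between C646 at 24 h and any other array, and 0.991 to 0.996 among the other 3 arrays. The differences at 6 h and at 24 h share no array, whereas the difference between the vehicle arrays shares one with each. Among the melanocyte lineage markers, 8 of 10 were measured and all 8 were kept, with a mean level of 7.52 to 8.10 on the 4 arrays. Of the markers of keratinocytes, fibroblasts, leukocytes and endothelium, 3 of 6, 1 of 7, 1 of 6 and 2 of 8 measured ones were kept. Their mean levels ranged over the arrays from 4.28 to 4.36, 3.80 to 3.88, 4.23 to 4.29 and 4.09 to 4.18. These means hide a pair of strongly read genes: the endothelial marker KDR averaged 8.20, with C646 minus DMSO at 0.53 for 6 h and 0.68 for 24 h, and the leukocyte marker CD68 averaged 7.72, with 0.13 and 0.058. The keratinocyte marker KRT10 averaged 5.92 and the fibroblast marker LUM 5.71, also above the filter level.

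With the probe set of the highest mean standing for each gene, 5 of 8 were above 0 at 6 h with a median of 0.049, and 5 of 8 at 24 h with a median of 0.17. The corresponding medians over 10707 kept genes were 0.0029 and 0.030, and 50.7% and 55.1% of them were above 0. For DMSO at 24 h minus DMSO at 6 h, 7 of the 8 were above 0 with a median of 0.13. Over all kept genes that vehicle difference had a median of -0.014, with 45.3% above 0. At 6 h only ACVR2A of the 8 was at least 1.5-fold different, against 2.26% of all kept probe sets, and at 24 h none was, against 10.3%. Since the genes were chosen with these differences known, nothing is read from the counts. Averaging the probe sets within each gene turned the 6 h median to -0.12, because the extra probe sets of ACVR2B and ACVR1B then entered.

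**Figure D1:**
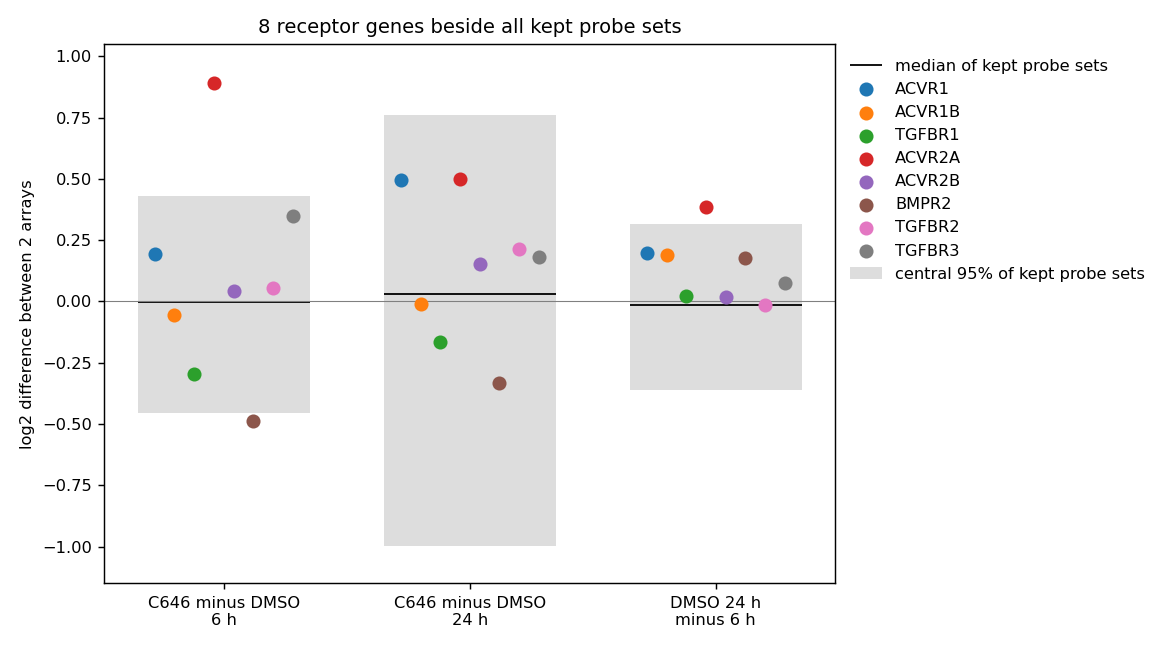
Log2 differences between arrays for the 8 receptor genes, 1 point per gene from its probe set of highest mean, for C646 minus DMSO at 6 h and 24 h and for DMSO at 24 h minus DMSO at 6 h. Grey bars span the central 95% of the 16579 kept probe sets (-0.46 to 0.43, -0.997 to 0.76 and -0.36 to 0.32) and black lines their medians. ACVR2A at 0.89 and BMPR2 at -0.49 are outside the bar at 6 h, and all 8 genes are inside it at 24 h. Between the vehicle arrays, ACVR2A at 0.38 is also outside the bar.

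Among the type I receptors, ACVR1, which transmits BMP signals and is also known as ALK2, read 6.87 with C646 and 6.68 with DMSO at 6 h, and 7.37 with C646 and 6.87 with DMSO at 24 h. Its level with C646 at 24 h was the highest of the 4, and both C646 arrays were above the DMSO array of their time. The difference was 0.20 at 6 h and 0.49 at 24 h, and DMSO at 24 h was itself higher than DMSO at 6 h by 0.20. At 24 h, 7.34% of kept probe sets had a C646 difference at least as high.

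TGFBR1, the type I receptor for TGF-beta, read 5.22 with C646 and 5.52 with DMSO at 6 h, and 5.37 with C646 and 5.54 with DMSO at 24 h. Both C646 levels were below both DMSO levels. The share of all kept probe sets split in this way was not counted, so nothing is read from such splits here or below. The differences were -0.30 at 6 h and -0.17 at 24 h, while DMSO at 24 h minus DMSO at 6 h was 0.024.

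ACVR1B, the type I receptor for activins, had differences of unlike size in its 2 probe sets. Probe set 3415148 read 4.91 with C646 and 4.96 with DMSO at 6 h, and 5.14 with C646 and 5.15 with DMSO at 24 h. The treatments were nearly level at both times, with differences of -0.055 and -0.0087. Probe set 3455056 read 3.64 with C646 and 4.31 with DMSO at 6 h, and 5.06 with C646 and 4.02 with DMSO at 24 h. It held both the lowest and the highest of its 4 values in C646, with differences of opposite sign, -0.67 at 6 h and 1.04 at 24 h. It was the 1 receptor probe set at least 2-fold higher at 24 h, as were 1.14% of all kept probe sets. With 16 added to the linear values, which damps low signals, the differences were -0.33 and 0.61, no longer 1.5-fold at 6 h or 2-fold at 24 h.

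The numbering of the array placed these ACVR1B probe sets differently. ACVR1B lies on the plus strand of chromosome 12. Of the 20 nearest-numbered probe sets of other named genes around 3415148, 18 belonged to chromosome 12 and 18 to plus-strand genes. Around 3455056 all 20 belonged to chromosome 12, and 0 to plus-strand genes, its direct neighbours being CELA1 and KRT84. Which transcript probe set 3455056 reads was not tested. Of the other 15 receptor probe sets, each had at least 17 of 20 such neighbours on its gene's own chromosome and at least 17 on its strand.

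Among the type II receptors, ACVR2A had the widest positive difference. ACVR2A binds activins and some BMPs. Probe set 2509610 read 5.75 with C646 and 4.86 with DMSO at 6 h, and 5.74 with C646 and 5.24 with DMSO at 24 h. The C646 levels of both times were alike and above both DMSO levels, while the vehicle level was higher at 24 h by 0.38. The difference was 0.89 at 6 h, or 1.85-fold, and 0.50 at 24 h, or 1.42-fold. At 6 h, 0.199% of kept probe sets had a difference at least as high. The other ACVR2A probe set, 2509557, read 5.10 with C646 and 5.07 with DMSO at 6 h, and 5.18 with C646 and 5.11 with DMSO at 24 h. Its differences of 0.028 and 0.069 did not share the size of the first, so the ACVR2A value rests on 1 of its 2 probe sets.

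The genes whose pattern over the 4 arrays was most like that of ACVR2A probe set 2509610 were PDCD6P1, KIF13A and PWWP3B. They had the smallest Euclidean distances of the 4 mean-centred values, 0.186, 0.191 and 0.200 log2 units, among 10707 kept genes. KIF13A, which encodes a kinesin motor, was at 0.63 at 6 h and 0.50 at 24 h. Its own probe set had 0 of 20 nearest-numbered neighbours on its gene's chromosome.

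BMPR2, the type II receptor for BMPs, was the member with the widest negative difference among genes with 1 probe set. It read 7.30 with C646 and 7.78 with DMSO at 6 h, and 7.63 with C646 and 7.96 with DMSO at 24 h. Both C646 levels were below both DMSO levels. The difference was -0.49 at 6 h, or 1.40-fold lower, and -0.33 at 24 h, or 1.26-fold lower. At 6 h, 2.13% of kept probe sets had a difference at least as low. The level at 24 h was above that at 6 h by 0.33 in C646 and by 0.18 in DMSO.

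TGFBR2, the type II receptor for TGF-beta, read 6.39 with C646 and 6.34 with DMSO at 6 h, and 6.54 with C646 and 6.32 with DMSO at 24 h. The C646 array of 24 h was the highest, and the other 3 arrays lay close together. The differences were 0.055 at 6 h and 0.22 at 24 h.

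TGFBR3, also called betaglycan, has no kinase and presents TGF-beta and inhibins to the type II receptors. It read 4.64 with C646 and 4.29 with DMSO at 6 h, and 4.55 with C646 and 4.37 with DMSO at 24 h. Both C646 levels were above both DMSO levels, by 0.35 at 6 h and 0.18 at 24 h. Its mean of 4.46 was not far above the filter level.

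**Figure D2:**
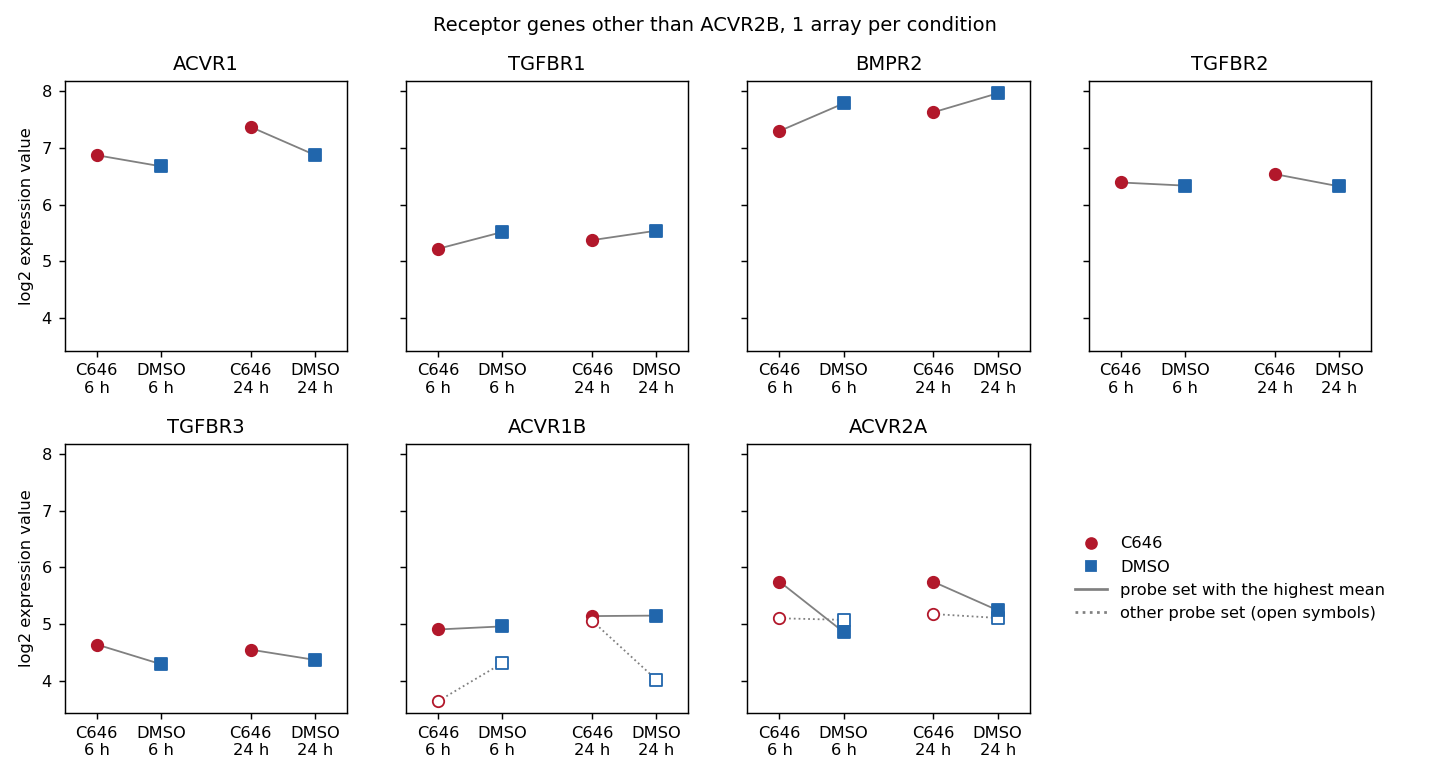
Log2 expression values on the 4 arrays for the 7 receptor genes other than ACVR2B, with C646 as red circles and DMSO as blue squares at each time. Filled symbols and solid lines are the probe set with the highest mean, open symbols and dotted lines the other probe set of ACVR1B and ACVR2A; with C646, BMPR2 and TGFBR1 are lower and ACVR1, ACVR2A, TGFBR2 and TGFBR3 (filled) higher than the DMSO array at both times, ACVR1B (filled) is within 0.055 of it, and levels are not compared between probe sets.

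ACVR2B, a type II receptor for activins, myostatin and related ligands, had 8 probe sets, and they disagreed on its response. The one of highest mean, 2617791, read 8.48 with C646 and 8.44 with DMSO at 6 h, and 8.61 with C646 and 8.46 with DMSO at 24 h. Its 4 values spanned 0.17, and its differences were 0.043 and 0.15. By this probe set alone, ACVR2B was nearly level.

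A pair of neighbouring ACVR2B probe sets had lower values in C646. Probe set 2617783 read 5.36 with C646 and 6.48 with DMSO at 6 h, and 5.72 with C646 and 6.47 with DMSO at 24 h. Probe set 2617786 read 5.73 with C646 and 6.91 with DMSO at 6 h, and 6.59 with C646 and 7.01 with DMSO at 24 h. In both, each C646 level was below each DMSO level, and DMSO at 24 h minus DMSO at 6 h was -0.0066 and 0.097. At 6 h the difference was -1.12 for 2617783 and -1.18 for 2617786, which is 2.17-fold and 2.27-fold lower. These were the 2 receptor probe sets at least 2-fold lower at 6 h, as were 0.115% of all kept probe sets. With 16 added to the linear values they were at -0.88 and -0.98, short of 2-fold. At 24 h they stood at -0.75 and -0.42, so the gap to DMSO was narrower at the later time in each.

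The remaining ACVR2B probe sets were mixed. Probe set 2617793 was at -0.28 at 6 h and -0.29 at 24 h, with both C646 levels below both DMSO levels. Probe set 2617779 was at -0.40 at 6 h and -0.028 at 24 h. Probe set 2617788 was at 0.39 at 6 h and -0.13 at 24 h, and its DMSO level at 24 h was above that at 6 h by 0.39. With both DMSO arrays averaged as the vehicle level, it was at 0.19 and 0.065. Probe set 2617781 was at 0.22 at 6 h and -0.61 at 24 h, and its DMSO level at 24 h was above that at 6 h by 0.75, more than either difference. With both DMSO arrays averaged, its C646 difference was -0.15 at 6 h and -0.23 at 24 h. It was kept only through the DMSO array of 24 h, since the mean of the other 3 arrays was 3.93, below the filter level. Probe set 2617752, below the filter, was at -0.015 and -0.036. Over all 8, the median was -0.15 at 6 h, with 5 below 0, and -0.21 at 24 h, with 7 below 0. Of all kept genes, 50.7% were above 0 at 6 h and 55.1% at 24 h. With both DMSO arrays averaged, 2617752 and 2617788 turned above 0 at 24 h. Probe sets of 1 gene are not replicates, so nothing is read from these counts.

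The 8 ACVR2B probe sets are numbered between those of XYLB and EXOG, the nearest other named genes. Such neighbours do not tell which part of the gene each one reads. Over the 4 mean-centred values, 2617783 and 2617786 were 0.385 log2 units apart, and either was at least 0.681 from each of the other 6. By a choice made after their values were seen, the genes nearest to 2617783 were CCL18, CDV3 and PGM2L1, and those nearest to 2617786 were ARRDC4, YES1 and SYNC. The distances were 0.174, 0.234 and 0.237 for 2617783, and 0.234, 0.249 and 0.325 for 2617786. The probe sets of CDV3, YES1 and SYNC had 0 of 20 nearest-numbered neighbours on their gene's chromosome and that of ARRDC4 had 1, against 19 for CCL18 and 20 for PGM2L1.

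**Figure D3:**
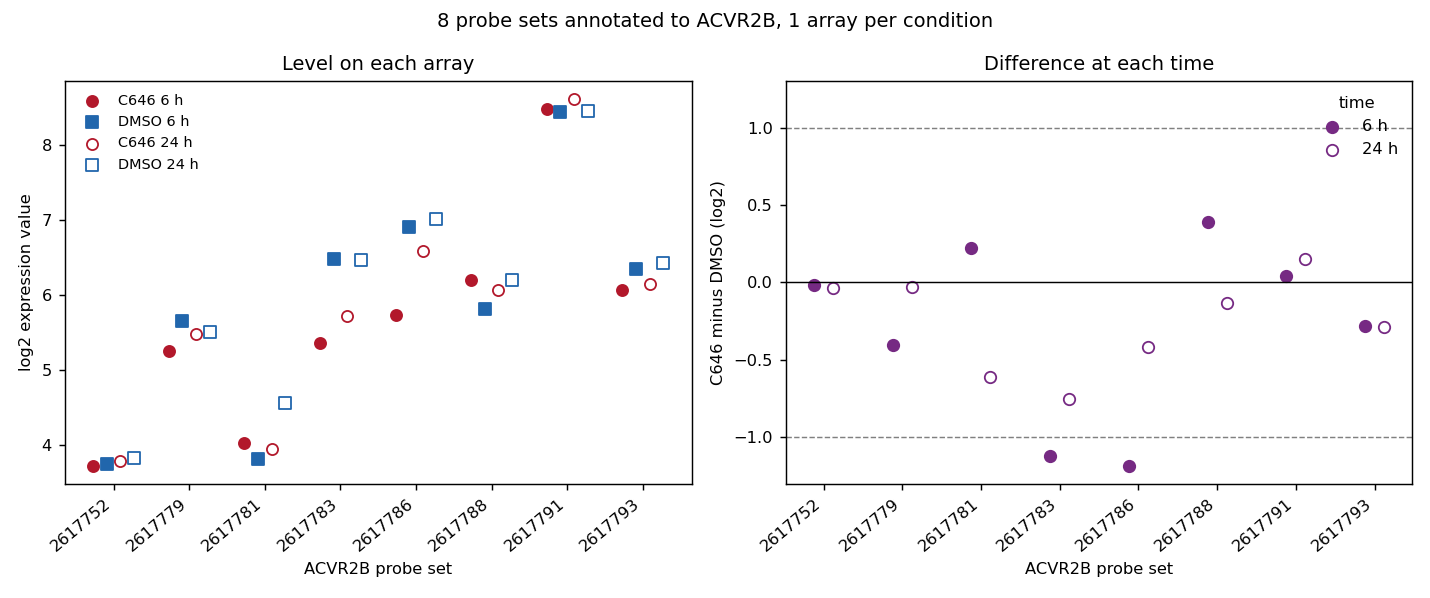
The 8 ACVR2B probe sets in the order of their numbers, with the log2 expression value on each of the 4 arrays at left and C646 minus DMSO at 6 h (filled) and 24 h (open) at right. Dashed lines mark 2-fold; 2617783 and 2617786 are at -1.12 and -1.18 at 6 h, whereas 2617791 is at 0.043.

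Of the 4 remaining receptors of the family, 3 were measured, and ACVR1C was not analysed here. ACVRL1, BMPR1B and AMHR2, receptors for BMPs and anti-Müllerian hormone, had means of 3.58, 3.92 and 3.77, all below the filter level. Their differences at 24 h were 0.024, -0.16 and -0.13 in the probe set of highest mean.

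The genes that surround the receptors were counted on 10 lists, chosen like the members with earlier results of these data known. Over the 77 kept genes, each counted 1 time, 33 were above 0 at 6 h with a median of -0.025, and 45 at 24 h with a median of 0.080. Among all kept genes, 50.7% were above 0 at 6 h and 55.1% at 24 h, which is the background for each such count below. At 6 h 3 were at least 1.5-fold higher, against 1.00% of all kept probe sets, and 2 lower, against 1.26%. At 24 h 6 were at least 1.5-fold higher, against 4.96%, and 0 lower, against 5.34%. ID4, one of those higher at 6 h, and DLX5, one of those higher at 24 h, had a mean DMSO level below the filter, as did BMP7, and were kept only through their C646 arrays. Over the other 74 genes, 2 were at least 1.5-fold higher at 6 h and 5 at 24 h. SMAD7, SMAD9, SKIL, BAMBI and others stand on more than one list.

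Few ligand genes were above the filter. Of the TGF-beta and activin branch, 3 of 12 measured genes were kept, with a median of 0.0084 at 6 h and 0.13 at 24 h. TGFB1, which encodes the main TGF-beta, was at -0.050 and 0.13, the activin subunit gene INHBB at 0.0084 and 0.083, and GDF11 at 0.36 and 0.31. Of the BMP and GDF branch, 5 of 15 were kept, with medians of -0.065 and -0.087. BMP7, kept only through its C646 arrays, was at 0.15 and 0.40. BMP4 was at -0.089 and 0.27, BMP2 at -0.29 and -0.31, and BMP6 at -0.065 and -0.24. None of these 8 reached 1.5-fold at either time.

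Among proteins that hold ligands away from receptors, FST had the highest 24 h difference. FST encodes follistatin, which binds activins, and read 7.66 with C646 and 7.39 with DMSO at 6 h, and 8.18 with C646 and 7.36 with DMSO at 24 h. The C646 array of 24 h stood above the other 3, with differences of 0.27 at 6 h and 0.82 at 24 h. The medians of the 8 kept genes of this list were -0.0099 and 0.047. The latent TGF-beta binding protein gene LTBP3 was at 0.51 and 0.46, the follistatin-like gene FSTL3 at -0.19 and -0.20, and TWSG1 at -0.054 and -0.37.

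Among co-receptors, BAMBI was the gene with the highest difference. BAMBI encodes a pseudoreceptor that resembles a type I receptor but lacks the kinase, and it is itself a BMP response gene. It read 8.73 with C646 and 8.15 with DMSO at 6 h, and 9.07 with C646 and 7.82 with DMSO at 24 h. Both C646 levels were above both DMSO levels, by 0.58 at 6 h and 1.26 at 24 h. The median of the 9 kept co-receptor genes was -0.012 at 6 h and 0.16 at 24 h, or 0.017 at 24 h over all 12 measured ones without the filter. Of the others on this list, TMEM219 was at 0.53, CD109 at -0.13 and SCUBE3 at -0.13 after 24 h.

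Of the 6 SMADs that carry the signal, 1 was above 0 at each time, and the list median was -0.074 at 6 h and -0.16 at 24 h. SMAD3, the TGF-beta and activin effector, read 5.82 with C646 and 5.88 with DMSO at 6 h, and 6.07 with C646 and 5.42 with DMSO at 24 h. Its 24 h difference of 0.66 came with a vehicle level that was lower at 24 h than at 6 h by 0.47. SMAD9, a BMP effector, was at 0.22 at 6 h and -0.54 at 24 h. SMAD2 was at -0.20 and -0.24, and SMAD5 at -0.081 and -0.079.

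Inhibitory SMADs and genes of receptor turnover, with 18 kept genes, stood at a median of -0.020 for 6 h and 0.081 for 24 h. PPP1R15A, which can direct a phosphatase to the TGF-beta type I receptor, was at 0.043 and 0.72. The endocytic adaptor gene DAB2 was at 0.31 and 0.51, the ubiquitin ligase gene SMURF1 at -0.25 and -0.19, and the deubiquitinase gene USP11 at 0.083 and -0.24. For the 12 kept nuclear partners and repressors the medians were -0.059 and -0.10, with TGIF1 at 0.31, ZEB2 at 0.57, RUNX3 at -0.25 and ZEB1 at -0.47 after 24 h. SKIL, a repressor of SMAD complexes that TGF-beta itself induces, read 6.62 with C646 and 7.53 with DMSO at 6 h, and 6.94 with C646 and 7.03 with DMSO at 24 h. The DMSO array of 6 h stood above the other 3, with differences of -0.91 at 6 h and -0.088 at 24 h.

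The response genes of the branches had medians of opposite sign at 6 h. For TGF-beta response genes the 6 h median was -0.17, where 2 of 12 kept genes were above 0, and the 24 h median was 0.18, where 9 of 12 were. Beside SKIL, JUNB was at -0.63 and 0.17, COL4A1 at -0.45 and -0.11, SNAI2 at 0.55 and 0.58, and CCN2, a matricellular protein gene, at -0.25 and 0.57. For BMP response genes the 6 h median was 0.28, where 10 of 12 kept genes were above 0, and the 24 h median was 0.11, where 7 of 12 were. These 12 include ID4 and DLX5, which were kept only through their C646 arrays and were above 0 at both times. With the filter at the 60th percentile, which kept 4 of these BMP response genes, the medians were 0.65 and 0.53. The difference between the lists was not tested.

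The BMP response genes with the widest 6 h differences were ID3, ID1 and ID4, which encode inhibitors of basic helix-loop-helix factors. ID3 read 7.07 with C646 and 5.93 with DMSO at 6 h, and 6.23 with C646 and 6.07 with DMSO at 24 h. ID1 read 7.36 with C646 and 6.64 with DMSO at 6 h, and 5.57 with C646 and 6.14 with DMSO at 24 h. ID3 was therefore higher by 1.14 at 6 h and 0.16 at 24 h, and ID1 was higher by 0.72 at 6 h but at -0.57 at 24 h. ID4 was at 0.61 and 0.29. The mean DMSO levels of ID4 and DLX5, 3.81 and 3.78, were below the filter level. The transcription factor genes HEY1 and DLX5 were at 0.58 and 0.29 at 6 h, and at 0.89 and 0.68 at 24 h, and SMAD9 is given above.

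**Figure D4:**
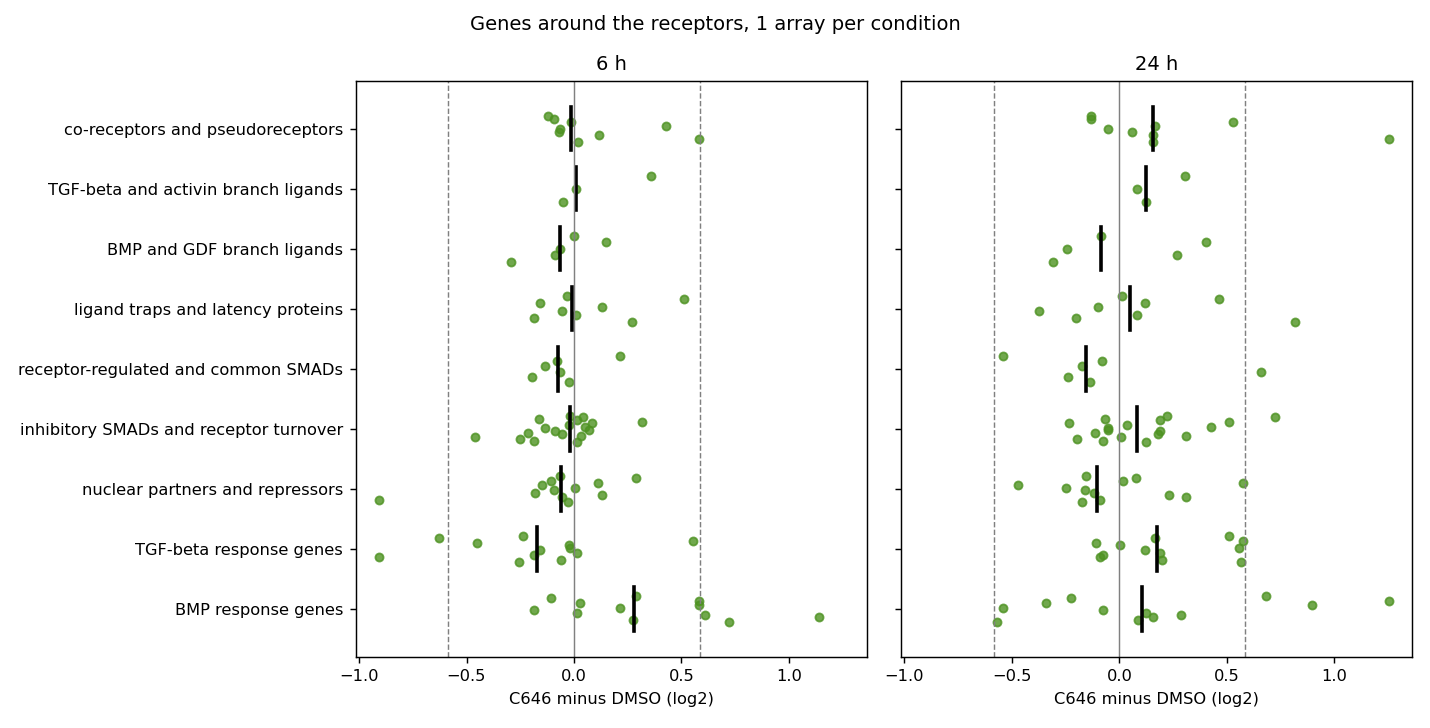
C646 minus DMSO in log2 units at 6 h and 24 h for the kept genes of 9 lists around the receptors, 1 point per gene, with black bars at the list medians and dashed lines at 1.5-fold. The BMP response list has the highest median at 6 h (0.28) and the TGF-beta response list the lowest (-0.17), and BAMBI is the rightmost point at 24 h (1.26). ID4 and DLX5 on the BMP response list, and the ligand gene BMP7, were kept only through their C646 arrays.

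Of the 8 melanocyte lineage markers, 6 were above 0 at 6 h and 8 at 24 h. The median of the 8 was 0.25 at 6 h and 0.51 at 24 h, with S100B at 1.49, MITF at 0.90, SOX10 at 0.74 and EDNRB at 0.62 after 24 h, and between the vehicle arrays it was -0.14. MLANA was at 0.64 at 6 h and 0.40 at 24 h. The other markers were lower at 24 h: PAX3 was at -0.033 and 0.26, TYRP1 at -0.27 and 0.15, and PMEL at 0.089 and 0.078. Their part in the receptor values was not tested. In RNA from whole cultures, fewer cells of a type and less RNA per cell cannot be told apart.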

How the data were processed

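Messenger RNA of 4 WM35 cultures was measured on 4 exon arrays. The authors' deposited table gives log2 expression values per gene-level probe set, a scale read from the values (2.48 to 13.6). Summarisation and normalisation are not given in the sources used here. Array medians of 4.39 to 4.41 show a common scale. The submitters' processing notes name hg19, of which no coordinates are given. By the platform annotation, 20429 probe sets had 1 symbol, 4232 had several and 2970 had none. Symbols were updated by Entrez ID through a GRCh38.p14 gene table, which matched 20362. Promoter windows came from RefSeq, GRCh38.p14, and matched all 9 genes.

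Differences were taken in Python 3.11.15 with pandas 2.3.3 and numpy 2.4.6. The calculation was checked on simulated arrays with large planted differences and little noise, which does not measure the error of these arrays. No p-value was computed. The members, lists and thresholds were chosen with earlier results of these data known. Named were every member, each pathway list gene at least 1.5-fold different at either time, the 2 highest and 2 lowest of each pathway list at 24 h, and the 3 genes nearest in pattern.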

Additional observations from a re-analysis of the deposited data

Results flagged for a closer look

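ACVR1B probe set 3455056 is the receptor value to look at again, because C646 minus DMSO lay at least 1.5-fold from 0 in opposite directions at both times, -0.67 at 6 h and 1.04 at 24 h. The 24 h difference minus the 6 h difference was 1.71. That change was not tested, since each condition had 1 array. The other probe set of ACVR1B was at -0.055 and -0.0087. Of the 20 nearest-numbered neighbours of 3455056, 0 belonged to plus-strand genes, unlike ACVR1B, and which transcript it reads was not tested. Its C646 level at 6 h, 3.64, was below the filter level of 3.96. With 16 added to the linear values its differences were -0.33 and 0.61.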

How the results depend on the processing

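Quantile normalization, centring each array on its median, setting C646 against the mean of both DMSO arrays, adding 16 on the linear scale, averaging all probe sets of a gene, and other filters gave 264 recomputed values. A value counted as moved past 0.12 log2 units, a robust SD of the vehicle arrays' difference, or past 1.5-fold for a count. By that measure 232 stayed and 32 moved. Some could not move. Centring shifted each difference only by the gap between array medians of 4.39 to 4.41, and all 36 such values stayed. Averaging probe sets left genes with 1 probe set unchanged. The count of 232 is therefore not read as a measure of stability. Of receptor values, 0 of at least 1.5-fold changed sign. Smaller values of probe sets and of the receptor medians did in 5 recomputed values, and list medians near 0 in 7. The 5 were the 6 h receptor median, ACVR2B probe set 2617781 at 6 h, and ACVR2B 2617752 and 2617788 and ACVR1B 3415148 at 24 h. Values per gene, not among these 5, also changed sign with all probe sets averaged. ACVR2B was then at -0.29 at 6 h and -0.26 at 24 h, against 0.043 and 0.15. ACVR1B was then at 0.51 at 24 h, against -0.0087. The 6 h receptor median was -0.12 with all probe sets averaged, against 0.049. The 2-fold higher probe sets at 6 h numbered 12 with the filter at the 60th percentile, against 21. Pathway genes at least 1.5-fold higher at 6 h numbered 6 with quantile normalization and 6 against both DMSO arrays, against 3. BAMBI, HEY1 and SNAI2 passed 1.5-fold with the first, and BAMBI, HEY1 and LTBP3 with the second. Against both DMSO arrays 1 was lower at 6 h, against 2, and 1 at 24 h, against 0. The lower gene at 24 h was ID1 at -0.82. Higher genes at 24 h then numbered 7, against 6: SMAD3 and DLX5 no longer passed 1.5-fold, whereas ZEB2, CCN2 and SNAI2 did. ACVR2A probe set 2509610 was at 0.70 and 0.69 against both DMSO arrays, and at 0.63 and 0.37 with 16 added. ACVR2B probe sets 2617783 and 2617786 were at -0.88 and -0.98 at 6 h with 16 added. ACVR1B probe set 3455056 was at -0.33 and 0.61 with 16 added, and -0.52 and 0.89 against both DMSO arrays. No paired analysis was possible, since each condition had 1 array and there were no replicates to pair. C646 was set against DMSO within each time, and no test with time as a block was run, since the members were selected on those differences. No detection call was used, so values near 3.96 may be close to background, which was not determined.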
